A study of Mus musculus with 4 samples.

Results

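Of the genes with a pSTAT3-Y705 peak at the promoter in untreated chronic myeloid leukemia (CML) stem and progenitor cells, 68 were listed in that library and nowhere in the 2 others. They were chosen by the peak lists themselves: a gene entered where the CML library had a peak within 1000 bp of its transcription start site (TSS), its nearest RefSeq accession was a messenger RNA, and neither the normal (WT) nor the imatinib-treated (CML-TKI) library named it at any distance. Genes on chromosome Y, genes whose names start with Zfp, histone genes, and Myc and Stat5b were left out by the same rule. The 68 were 68.0% of 100 CML promoter genes, out of 958 genes named in the whole table. That percentage is what the rule selected and is given as a description only.

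The libraries came from LSK cells, which lack lineage markers and carry Sca1 and cKit, sorted from the bone marrow of C57BL/6 mice as a population of stem and early progenitor cells. WT mice were untreated. CML mice carried the BCR-ABL and SCL-tTA transgenes, in which a tetracycline-regulated activator under an SCL (Tal1) enhancer drives BCR-ABL in stem and progenitor cells, and were untreated. CML-TKI mice had the same CML genotype and received the BCR-ABL inhibitor imatinib on alternate days, at 200 mg/kg for 4 weeks by the sample's treatment label and at 400 mg/kg for 30 days by the treatment protocol. Each group was 1 library, and an IgG input was not analysed here, so no difference between groups had a replicate check and no test was made. How many mice were pooled is not given in the sources used here. The table gave positions without read counts or enrichment, so peak depth is unknown, and a gene without an entry is one that this table does not list. The study's text counts far more sites in each library than the table holds. How its entries were selected is not given in the sources used here, and absence from WT or CML-TKI throughout means absence from this table. The WT, CML and CML-TKI lists were 1031, 1464 and 3529 entries long.

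STAT3 is a latent transcription factor. Cytokine receptors acting through JAK kinases, and some oncogenic kinases, phosphorylate it at the tyrosine that the antibody recognises, after which it forms dimers, enters the nucleus and binds DNA with the core TTCNNNGAA. Its known direct targets include genes of cytokine feedback, survival and proliferation, such as Socs3, Bcl6 and Stat3 itself.

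The sequences below are the promoters among these genes that hold that core, shown because they are where the DNA carries the letters a STAT dimer reads. RefSeq promoter windows of GRCm38, from 250 bases before the gene start to 50 after it, were matched for 49 of the 68 genes (72.1%). TTCNNNGAA reads the same on both strands as a pattern, and it was found in 4 of the 49 genes. It stood in 8.3% of all 32851 windows and in 9.55% of the 27025 genes that have one. Because fewer than 80% of the genes had a window, a comparison of the set with all promoters is void, and the promoters are described one by one. Capitals mark the core, and the sequences run 5′ to 3′ on the strand of the gene.

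Ap4e1: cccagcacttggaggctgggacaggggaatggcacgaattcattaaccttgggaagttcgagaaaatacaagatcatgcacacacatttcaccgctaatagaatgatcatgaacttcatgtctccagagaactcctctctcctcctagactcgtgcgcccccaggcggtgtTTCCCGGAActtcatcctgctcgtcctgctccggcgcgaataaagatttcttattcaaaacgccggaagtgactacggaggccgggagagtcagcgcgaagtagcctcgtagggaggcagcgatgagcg

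Agk: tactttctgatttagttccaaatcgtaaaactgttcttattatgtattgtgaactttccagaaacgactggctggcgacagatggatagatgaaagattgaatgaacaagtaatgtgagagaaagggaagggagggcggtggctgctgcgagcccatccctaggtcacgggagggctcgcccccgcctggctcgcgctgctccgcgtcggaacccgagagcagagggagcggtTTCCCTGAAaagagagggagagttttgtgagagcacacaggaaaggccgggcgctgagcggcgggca

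Nfyc: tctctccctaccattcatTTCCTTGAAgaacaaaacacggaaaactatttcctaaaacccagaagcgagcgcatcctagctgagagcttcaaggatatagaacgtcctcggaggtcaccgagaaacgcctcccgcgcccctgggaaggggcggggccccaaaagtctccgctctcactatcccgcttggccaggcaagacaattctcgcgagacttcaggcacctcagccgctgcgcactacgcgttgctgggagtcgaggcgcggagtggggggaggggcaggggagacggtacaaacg

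Hnrnph1: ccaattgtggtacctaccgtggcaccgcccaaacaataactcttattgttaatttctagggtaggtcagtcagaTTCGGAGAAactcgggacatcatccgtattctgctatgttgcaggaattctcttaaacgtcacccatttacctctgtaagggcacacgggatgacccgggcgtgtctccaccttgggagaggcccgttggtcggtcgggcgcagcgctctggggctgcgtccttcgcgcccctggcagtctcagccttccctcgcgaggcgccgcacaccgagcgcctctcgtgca

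The Ap4e1 window (chr2:127008461-127008760, plus strand) was the single member window that also held the stricter palindrome TTCCNGGAA, which stood in 1.15% of all windows. Ap4e1 encodes a subunit of the AP-4 adaptor that sorts cargo at the trans-Golgi network. Its match TTCCCGGAA ran from 79 to 71 bases before the start, and the 190 bp peak (chr2:126834319-126834509 in mm9), centred 33 bp upstream, reached from 128 bases before to 62 after. The Agk window (chr6:40325228-40325527, plus strand) held TTCCCTGAA from 17 to 9 bases before the start, while its 189 bp peak, centred at 87, began 7 bases before it. The core of this mitochondrial lipid kinase gene therefore lay just outside the listed peak. In Nfyc (chr4:120825692-120825991, minus strand), which encodes a subunit of the CCAAT-binding factor NF-Y, TTCCTTGAA lay 232 to 224 bases before the start and the peak was centred 209 bp after it. In Hnrnph1 (chr11:50376740-50377039, plus strand), a splicing regulator, the window with TTCGGAGAA belonged to an alternative start 688 bp upstream of the accession the table names, and the peak lay 897 bp downstream of the latter. So 1 of the 4 matches fell inside its peak when the peak was placed by its distance to the TSS, and that of Agk was too near the edge to call. Peak positions are mm9 and windows GRCm38, so this placing assumes that both builds use the same start.

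Each of the 68 genes had exactly 1 distinct promoter peak, and none had a CML entry elsewhere. The peaks were centred at a median of 152 bp from the TSS (95% interval of the median 101 to 216, interquartile range 63 to 321). Of the peaks, 40 lay upstream of the TSS by their centre, 47 lay within 250 bp (69.1%, exact 95% interval 56.7 to 79.8), and 23 covered the TSS (33.8%, 22.8 to 46.3). By the table's region class, 51 lay in promoters, 10 in introns, 6 in 5′ UTRs and 1 at a transcription end. Of the 10 intron peaks, 7 were annotated as CpG island: those of Tra2b, Efcab2, Hspa8, Hsp90aa1, Skp1a, Vamp3 and Lamtor1. For peaks of the promoter class that annotation repeats the class, so CpG islands there were not read. Intervals here cover counting error over genes only.

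**Figure D1:**
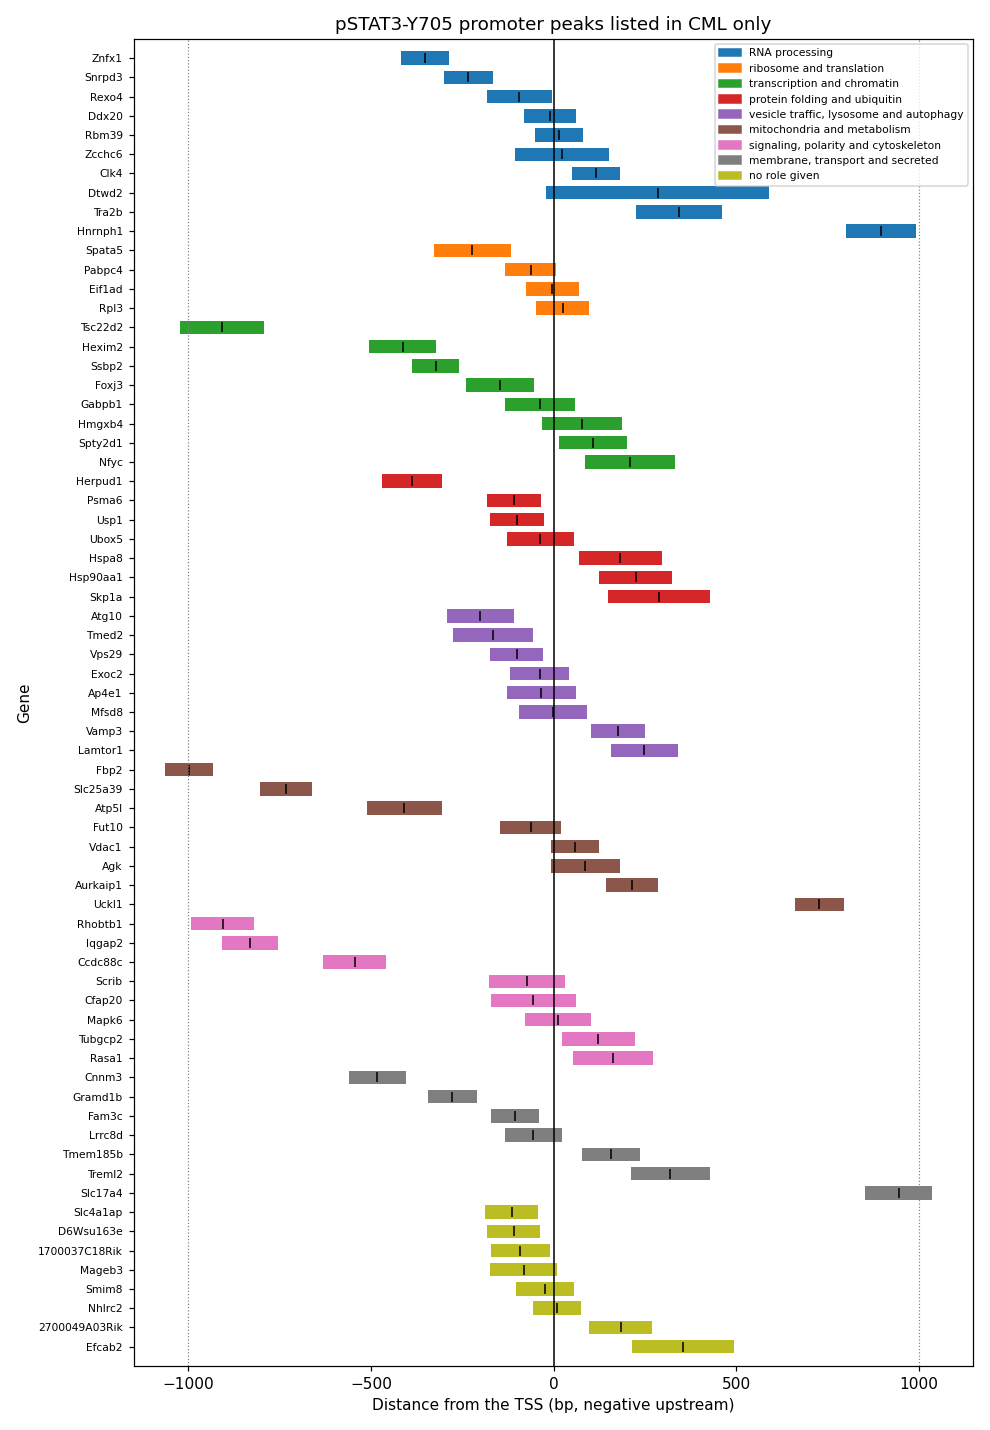
Promoter peaks of the 68 genes listed in CML only, grouped by the role of the gene. The x axis is the distance from the TSS in bp (negative upstream), bars are peak widths, black ticks are the listed distances and dotted lines mark the 1000 bp limit; 47 centres lie within 250 bp of the TSS.

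Role groups were assigned by hand once the names were known, and their sizes have no background. RNA processing held 10 genes. Tra2b, an activator of exon inclusion, had a 235 bp peak at chr16:22265541-22265776 in an intron, 344 bp downstream of the TSS. Rbm39, a splicing factor and coactivator, had a 131 bp peak at chr2:156005895-156006026, 14 bp downstream. The peak of Snrpd3, a core Sm protein of the spliceosomal snRNPs, was 135 bp wide at chr10:74980487-74980622 and 233 bp upstream. Hnrnph1 had the most distant peak of the group, 190 bp wide at chr11:50192023-50192213. These 4 were the members that a list of 102 splicing genes contained, of 6 that CML named at any distance, and CML-TKI named 7 and WT 2. Over all genes, CML named 493 at any distance, including genes that the rule leaves out, and 68 were members. The list counts below have the same background, and none was tested. The promoter genes listed in CML-TKI only also had 4 from that list (Hnrnpa2b1, Hnrnpf, Snrpb and Srsf7). Ddx20, a helicase of the SMN complex that assembles snRNPs, was among the 5 genes with peaks nearest to the TSS, at -9 bp (chr3:105490427-105490570). Clk4, a kinase of SR splicing proteins, lay at 117 bp, Rexo4, an exonuclease family member, at -94 bp, and Znfx1, a helicase of RNA surveillance, at -352 bp. Zcchc6, a terminal uridylyltransferase, had one of the 5 widest peaks, 258 bp at chr13:59924356-59924614 and 23 bp from the TSS. Dtwd2, a tRNA-modifying enzyme, had the widest, 610 bp, centred at 285 bp in an intron and annotated to a repeat.

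Of the 4 genes of the ribosome and translation, 3 had peaks over the TSS. Rpl3, a protein of the large ribosomal subunit, had a 147 bp peak at chr15:79913738-79913885, 25 bp downstream of the TSS, and the table's region class gave it to the small nucleolar RNA gene Snord43, which sits within Rpl3. It was the single member among 79 cytosolic ribosomal protein genes, of which 3 were named in CML. Eif1ad, related to an initiation factor, had its peak at -3 bp (143 bp wide, chr19:5366739-5366882). Pabpc4, a poly(A)-binding protein, lay at -63 bp. Spata5, an AAA ATPase of ribosome maturation, lay at -223 bp and did not cover the start. Translation factors and tRNA synthetases, a list of 70 genes, had no member.

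Transcription and chromatin held 8 genes. Nfyc had one of the 5 widest peaks, 247 bp at chr4:120498014-120498261 in the 5′ UTR. Gabpb1, the partner subunit of the ETS factor GABP, had a 191 bp peak over its TSS at -36 bp. Peaks of Hmgxb4, an HMG-box protein, and of Spty2d1, a histone chaperone, lay at 78 and 108 bp. Foxj3, a forkhead factor, lay at -147 bp and Ssbp2, a partner of LDB1 complexes, at -323 bp. Hexim2, an inhibitor of the elongation kinase P-TEFb, lay at -413 bp and Tsc22d2, a TSC22 domain protein, at -907 bp. None of these 8 genes was on the list of 135 chromatin and transcription regulators, of which CML named 6.

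The 7 genes of protein folding and ubiquitin included a pair of cytosolic chaperones. Hsp90aa1, the alpha isoform of HSP90, had a 201 bp peak 225 bp downstream of its TSS, and Hspa8, the constitutive HSC70, a 226 bp peak 183 bp downstream, each in an intron annotated as CpG island. Skp1a, the adaptor of SCF ubiquitin ligases, had a 279 bp peak at chr11:52045648-52045927, among the 5 widest, and Psma6, an alpha subunit of the 20S proteasome, a 150 bp peak at chr12:56499629-56499779, 108 bp upstream. Skp1a and Psma6 were the members of a list of 96 proteasome and ubiquitin ligase genes, of which 4 were named in CML. Herpud1, which acts in disposal of misfolded endoplasmic reticulum proteins, had a 164 bp peak at chr8:96909930-96910094, 388 bp upstream. Usp1, a deubiquitinase of DNA repair proteins, lay at -100 bp, and Ubox5, a U-box ligase, at -36 bp.

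Vesicle traffic, lysosome and autophagy counted 8 genes, all with peaks within 248 bp of the TSS. The list of 148 endoplasmic reticulum, Golgi and vesicle genes contained 5 of the 68 (Exoc2, Herpud1, Tmed2, Vamp3 and Vps29) out of 8 that CML named. It was the list with the most, but only the mitochondrial list, with 181 genes, was longer. Members were 68 of the 493 genes that CML named at any distance, and 68.0% of the 100 with promoter peaks under the rule. Beside its 5 members, the list had 2 of the 32 other CML promoter genes (Atf4 and Cltc). Whether this list stands apart was not tested. CML-TKI named 5 of the 148 and WT 1. Tmed2, a p24 cargo receptor of early secretion, had a 219 bp peak at chr5:124990526-124990745, 165 bp upstream. Vps29, a retromer subunit, had a 145 bp peak at chr5:122804249-122804394, 101 bp upstream. Exoc2 of the exocyst lay over its TSS at -38 bp (chr13:31065874-31066034) and Vamp3, an endosomal SNARE, at 176 bp (chr4:150431813-150431960). Mfsd8, a lysosomal membrane protein, had the peak nearest to any TSS, at -1 bp (188 bp wide, chr3:40650683-40650871). Atg10, the E2-like enzyme that joins Atg12 to Atg5, lay at -200 bp (185 bp wide, chr13:91363700-91363885) and was the single member of 66 apoptosis and autophagy genes, of which CML named 1. Lamtor1, the membrane anchor of the Ragulator complex that recruits mTORC1 to lysosomes, lay at 248 bp.

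Mitochondria and metabolism held 8 genes. Vdac1, the main channel of the outer mitochondrial membrane, had a 132 bp peak 58 bp downstream of the TSS. Atp5l, a subunit of ATP synthase, had a 206 bp peak at chr9:44729131-44729337, 409 bp upstream, and was the single member of 181 genes of the mitochondrial ribosome, import and oxidative phosphorylation. That list had 3 genes named in CML. Agk had its peak at chr6:40275470-40275659. Slc25a39, a mitochondrial glutathione carrier, lay at -733 bp, Aurkaip1, a mitochondrial ribosome protein, at 216 bp, and Uckl1, a uridine kinase-like enzyme, at 728 bp, where the region class named the end of Zfp512b. Fut10, a fucosyltransferase family member, lay at -63 bp. Fbp2, fructose-bisphosphatase of gluconeogenesis, lay at -998 bp. Of 58 glycolysis and TCA cycle genes none was a member; CML named 0 of them, CML-TKI 5 and WT 2.

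Signaling, polarity and cytoskeleton counted 8 genes. Rasa1, the GTPase-activating protein that turns RAS off, had a 219 bp peak at chr13:85428818-85429037 in its 5′ UTR, 164 bp from the TSS, and was the single member of 102 genes of BCR-ABL, RAS-MAPK and PI3K-AKT-mTOR signaling, of which CML named 5. Mapk6, the atypical kinase ERK3, was among the 5 nearest to the TSS, at 13 bp (180 bp wide, chr9:75257720-75257900). Scrib, a polarity scaffold, and Cfap20, a ciliary protein, lay over the TSS at -73 and -55 bp. Tubgcp2, a gamma-tubulin complex protein, lay at 123 bp. Ccdc88c, a Dishevelled-binding protein, lay at -544 bp, Iqgap2, an IQGAP scaffold, at -831 bp and Rhobtb1 at -906 bp.

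The 7 genes of membrane, transport and secreted proteins had peaks from 55 to 945 bp away. Lrrc8d, a subunit of volume-regulated anion channels, lay at -55 bp, Fam3c, a secreted cytokine-like protein, at -105 bp, and Tmem185b, a transmembrane protein, at 157 bp. Gramd1b, a sterol transfer protein, lay at -277 bp, Treml2, a TREM-like receptor, at 320 bp, and Cnnm3, of the magnesium transport family, at -482 bp. Slc17a4, a phosphate transporter family member, lay at 945 bp. For 8 genes no role is given here: Nhlrc2 (10 bp, 130 bp wide, chr19:56622696-56622826, among the 5 nearest to the TSS), Smim8 (-23 bp), Mageb3 (-82 bp), 1700037C18Rik (-91 bp), D6Wsu163e (-109 bp), Slc4a1ap (-115 bp), 2700049A03Rik (184 bp) and Efcab2 (355 bp). The Efcab2 peak, 279 bp at chr1:180336228-180336507, was among the 5 widest.

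Across the 16 gene lists, 15 of the 68 genes (22.1%) were on at least 1, compared with 16 of 32 other CML promoter genes (50%) and 25 of 108 promoter genes listed in CML-TKI only (23.1%). The 74-gene list of JAK-STAT genes and known STAT3 targets had no member. That list, like the rule, leaves out Myc and Stat5b, and Myc, a known STAT3 target, otherwise met the rule: it had a CML promoter peak and no entry in WT or CML-TKI. The other CML promoter genes had 3 from it (Bcl6, Jak3 and Stat3) and the CML-TKI-only genes 2 (Mcl1 and Nfkbiz). The lists of hematopoietic stem cell regulators and LSK markers (64 genes), lineage markers (52), DNA replication and cell cycle (107), DNA damage response (74), and Wnt, hedgehog and TGF-beta signaling (118) also had no member, although CML named 4, 1, 4, 1 and 2 of their genes. Members were 68 of the 493 genes that CML named at any distance. With so few named genes, a list without a member is not read as a result. These counts carry no test, and the lists do not show expression of the genes.

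At the edge of the rule, the 3 genes just inside the limit were Fbp2 at -998 bp, Slc17a4 at 945 bp and Tsc22d2 at -907 bp. The 3 just outside, also listed in CML only, were Morf4l1 at 1034 bp, Larp1 at 1210 bp and Atp6v0a1 at -1212 bp. Among CML genes named only by entries beyond 1 kb, 152 of 296 were absent from the other libraries, a background of 51.4%. Of 193 CML-TKI promoter genes, 108 (56.0%) were absent from WT and CML. WT had 60 promoter genes by the same filters and all were named in CML or CML-TKI. The WT list was the shortest, with 1031 entries against 1464 for CML and 3529 for CML-TKI. The study's text counts far more WT sites than are listed here, so the lack of WT-only genes describes this list alone.

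The member peaks were compared with the other promoter peaks of CML, whose 32 genes were also named in WT or CML-TKI, and with the 108 CML-TKI-only promoters. Median distance to the TSS was 152 bp for the members, 123 bp (90 to 197) for the other CML promoters and 112 bp (93 to 150) for the CML-TKI-only promoters. Member peaks had a median width of 172 bp (95% interval 156 to 185), against 212 bp (175 to 248, n = 31) and 188 bp (175 to 197). Only 4 of the 68 (5.88%, 1.63 to 14.4) were wider than 250 bp, those of Dtwd2, Skp1a, Efcab2 and Zcchc6. The share was 9 of 31 (29%, 14.2 to 48) in the other CML promoters and 18 of 108 (16.7%, 10.2 to 25.1) in the CML-TKI-only promoters. Of 34 CML promoter genes with a peak of at least 200 bp, 17 were members, and of 65 with a narrower peak, 51 were. Beside this, 20 of the 32 other CML promoter genes had a CML peak with the same start and end, to the base, in CML-TKI, and 7 in WT. The part of these common ends in the width difference was not tested.

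**Figure D2:**
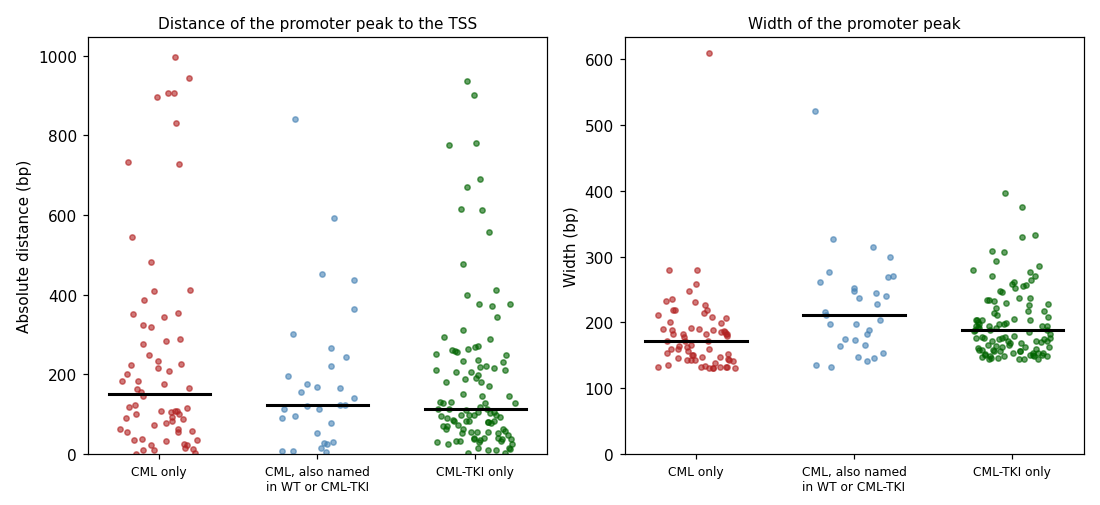
Absolute distance to the TSS (bp, left) and width (bp, right) of 1 promoter peak per gene in CML only (68 genes), in CML and also named in WT or CML-TKI (31 with known ends) and in CML-TKI only (108). Points are genes and lines medians; median widths are 172, 212 and 188 bp.

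Some of these genes had another gene start close by. In the GRCm38 RefSeq annotation, 13 of the 68 genes (19.1%, 10.6 to 30.5) had a protein-coding neighbour on the opposite strand that started within 1 kb of their own start. The share was 1 of 30 (3.33%, 0.0844 to 17.2) for the other CML promoter genes, 18 of 108 (16.7%, 10.2 to 25.1) for the CML-TKI-only genes and 11% of all 21521 protein-coding genes off chromosome Y. Of the 13, 6 had the neighbour's start upstream of their own, so that the genes ran apart (8.82%, 3.31 to 18.2, against 6.94% of all protein-coding genes): Snrpd3 with Gucd1, D6Wsu163e with Rad51ap1, Slc4a1ap with Supt7l, 2700049A03Rik with Timm9, Foxj3 with Frg2f1 and Vps29 with Rad9b. In the other 7 the neighbour started downstream, so that the 5′ ends overlapped: Clk4 with BC049762, Nhlrc2 with Dclre1a, Mageb3 with Ctdspl2, Eif1ad with Banf1, Spata5 with Nudt6, Tubgcp2 with Zfp511 and Lamtor1 with Tomt. For 9 of the 68 peaks the table's region class named a gene other than the nearest one, and for 6 of these it was this neighbour. There the table itself places the peak at both genes. These 6 neighbours were BC049762, Dclre1a, Timm9, Banf1, Frg2f1 and Rad9b. Dclre1a and Rad9b act in DNA repair or its checkpoints, and Timm9 in mitochondrial import. No role is given here for the others. Rad51ap1, also a DNA repair gene, was not named by the region class. These roles of neighbours have no background share, and the DNA damage response list had no member.

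**Figure D3:**
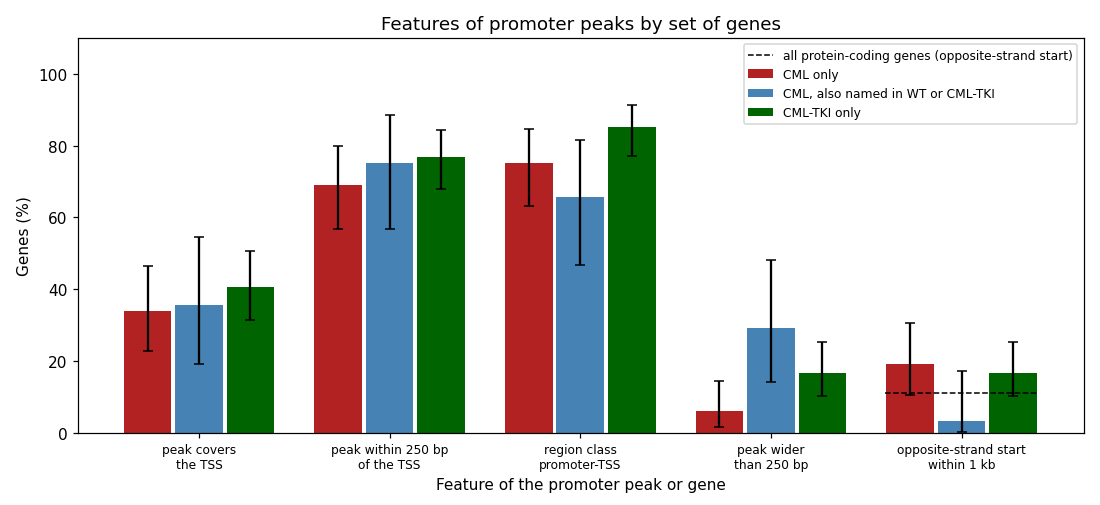
Percent of genes (y axis) with each feature of the promoter peak or gene in the same 3 sets, with exact 95% intervals as error bars. The dashed line is the share of all protein-coding genes with an opposite-strand start within 1 kb (11%); peaks wider than 250 bp made up 5.88%, 29% and 16.7%.

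Absence by name was then set against position. The rule had already removed every gene named in WT or CML-TKI, so overlap was unlikely beforehand and its absence is a description only. No WT or CML-TKI peak with known ends overlapped any of the 68 peaks. The nearest lay at a median of 1162642 bp. For the 108 CML-TKI-only promoters, chosen the same way, the nearest WT or CML peak lay at a median of 1498664 bp. These medians are not like measures, because the lists searched differ in length. Members were set against WT and the 3529 CML-TKI entries, the CML-TKI-only promoters against WT and the 1464 CML entries. For 7 of the 68 genes the nearest WT or CML-TKI peak lay within 100 kb. Lamtor1 stood apart from the rest: its CML peak (183 bp, chr7:109054508-109054691) ended 41 bp from a CML-TKI peak (chr7:109054732-109054896) that the table gave to Tomt, the opposite-strand gene whose 5′ end overlaps that of Lamtor1, 59 bp from the Tomt start. The pair of peaks did not overlap. The next were Atp5l at 39443 bp (a CML-TKI peak named for Kmt2a), Mapk6 at 47420 bp, Tmed2 at 59232 bp, Ccdc88c at 69128 bp, Fbp2 at 84474 bp and Skp1a at 97207 bp. The Skp1a neighbour, named for Mir3061, was listed in all 3 libraries. For 3 genes (Ddx20, Rbm39 and Tmed2) an entry of WT or CML-TKI with ends rounded to 1 Mb was listed within 600 kb, and its exact distance could not be had. Conversely, the CML promoter peak of Brd2 overlapped no peak of the other libraries, but CML-TKI listed a Brd2 promoter peak 461 bp away, and Atf7ip was named there only far from its promoter.

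**Figure D4:**
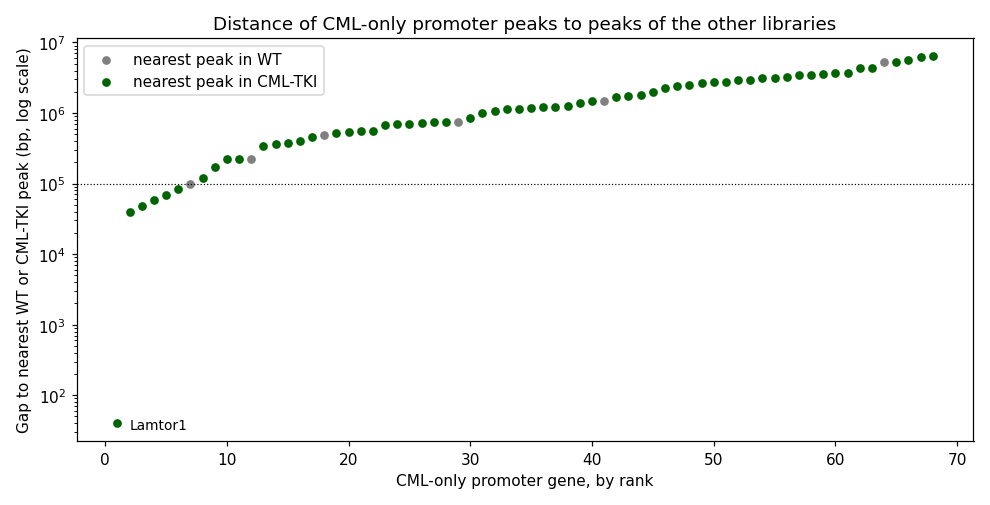
Gap from each of the 68 CML-only promoter peaks to the nearest WT or CML-TKI peak (bp, log scale), ranked, with the library of that peak in colour. Where both libraries list a peak at the same gap, the colour shows only the library listed first. The dotted line marks 100 kb; 7 genes lie under it, and Lamtor1 is at 41 bp.

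The members lay on 18 chromosomes, with at most 8 on 1 (chromosomes 2 and 13). In 4 pairs the peaks lay within 500 kb of each other: Skp1a and Vdac1 (128682 bp), Atg10 and Ssbp2 (236429 bp), Gabpb1 and Ap4e1 (332859 bp), and Gramd1b and Hspa8 (345733 bp). The table listed 59 of the 68 peaks 2 times and 9 once: Agk, Ap4e1, Atg10, Atp5l, Aurkaip1, Ccdc88c, Cfap20, 1700037C18Rik and 2700049A03Rik. In 37 genes the repeat was identical, and in 22 its ends were rounded.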

How the data were processed

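LSK cells were cross-linked and sheared, and chromatin was precipitated with an antibody to pSTAT3-Y705. By the study's methods, bwa mem aligned the reads to mm10, and peaks were called with MACS2, HOMER, Genrich and SICER2. They were then merged within 100 bp, merged between samples and annotated with HOMER on mm10. The submitters' processing notes name Partek 8.0, mm9 and mm10. The table the authors deposited has columns for start, end, region class, nearest gene and distance to the TSS in bp, with no count or score. Ends on 6 chromosomes pass the GRCm38 lengths, and 3 of 68 member peaks lay within 1 kb of their gene's start in GRCm38, so positions are given as mm9. That differs from the build in the study's methods, so whether the listed peaks came from that pipeline is unknown.

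The members, gene lists, role groups and most alternatives were chosen with earlier results of these data known; roles were assigned by hand after the names were seen. Every member was named once, with the position of those on a gene list, the 5 widest, the 5 nearest to the TSS and those with the STAT motif; up to 4 motif promoters were printed. The position of Dtwd2 is not printed. Lamtor1, Brd2, Atf7ip and the genes with close neighbouring starts were singled out after their values were seen. Rounded entries took full ends from the same RefSeq accession and distance, which left 4 CML, 37 CML-TKI and 65 WT entries without ends. Distance was taken from the peak centre: of 73 transcripts with several peaks of 1 library within 20 kb, 65 then had 1 start site within 3 bp. Shares have exact Clopper-Pearson 95% intervals and medians order-statistic intervals. The rule, gaps and motif search were tested on simulated data. Python 3.11.15, pandas 2.3.3, numpy 2.4.6, scipy 1.17.1 and matplotlib 3.10.9 were used.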

Additional observations from a re-analysis of the deposited data

How the results depend on the processing

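Of 39 alternative values, 33 stayed within 1.5 times the main count or within the interval of the main value. Some of the 33 were fixed beforehand. Each gene had 1 distinct promoter peak, so using every distinct peak repeated the main values. Every member also had an entry with full ends, so leaving out rounded entries could not change its distance or width. Keeping only peaks of at least 200 bp left 17 genes of 68, with a median width of 226 bp, by the construction of that filter. The filter does not act on distance, and the median distance moved to 223 bp, outside the main interval of 101 to 216 bp. The number of genes near a WT or CML-TKI peak was 1 within 10 kb and 31 within 1 Mb, against 7 within 100 kb. The STAT motif stood in 8.16% of the 49 genes with a window and the stricter motif in 2.04%. With promoter limits of 500 to 5000 bp, 59 to 91 genes were listed in CML only. Matching by Entrez identifier or RefSeq accession changed no gene. Judging absence by position gave 69 of the 99 CML promoter genes with known ends, all 68 and Brd2. That the 68 remained follows largely from the rule. The Brd2 CML peak lay 461 bp from a CML-TKI peak. Atf7ip had no known ends and was not judged, and WT or CML-TKI entries without ends were not searched. Requiring no other peak within 1 kb gave 67. It was an alternative chosen after seeing the data, like the use of 1 window per gene (6.12%). No paired analysis was possible because WT, CML and CML-TKI had 1 library each, and for the same reason no replicate could be left out. Depth is unknown, so a site missing from a list cannot be told apart from one under that library's detection limit.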
